A study of Mus musculus with 17 samples.

Results

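The Hox genes are the 39 mouse protein-coding genes whose symbols are Hoxa, Hoxb, Hoxc or Hoxd followed by a number, taken from the GENCODE annotation of mm10, out of 21755 protein-coding genes on the autosomes and chromosome X. They lie in 4 clusters, and every ATAC-seq peak that overlapped a cluster, from its first to its last Hox gene plus 20 kb on each side, was collected. Merging the peaks of all libraries gave 6 such regions, of which 3 were called in at least 2 libraries of one group and were kept, against 147420 kept regions in the genome. The libraries came from neuronal (NeuN+) nuclei sorted from the bilateral nucleus accumbens (NAc) of C57BL/6 mice (C57BL/6J in the study's methods) aged 52 to 54 days, each from a pool of 3 animals. Females in diestrus, females in proestrus and males either received 10 mg/kg cocaine intraperitoneally 1 h before collection or received no cocaine. The 17 libraries formed 6 groups, with 2 libraries from males given cocaine and 3 in every other group, and the study asked whether acute cocaine changes neuronal chromatin differently by sex and estrous cycle stage. No injected control group was among the samples, so cocaine and the injection itself cannot be told apart.

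Hox genes encode homeodomain transcription factors that assign position along the head-to-tail axis of the embryo, and their order along each chromosome matches the order in which they are used. In the brain their expression belongs to the hindbrain and spinal cord, while the forebrain, which includes the NAc, forms without them, and in such cells the clusters are classically covered by the repressive Polycomb mark on histone H3. Hox proteins bind DNA together with TALE homeodomain cofactors of the Pbx, Meis and Pknox families. ATAC-seq reads out open chromatin as peaks of transposase insertions, and an active or poised CpG-rich promoter usually carries one.

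The libraries held 75458 to 157005 peaks, with the fewest in male cocaine 2 (75458) and male cocaine 1 (87707). The background was 6.26 to 9.55 reads of pileup (reads stacked over one base), and the weakest peak called anywhere in a library had a summit of 15 to 20 reads, or 1.97 to 2.21 times background. A Hox promoter without a peak was therefore not called at this depth, which does not show that it held no reads. Neuronal marker promoters had a peak in 11 or 12 of 12 cases in every library. Of 15 glial and vascular markers, 1 to 4 had one in 16 libraries and 8 in proestrus cocaine 2. Mbp, a myelin gene, had a promoter peak in all 17 libraries and Gfap, an astrocyte gene, in 16, while the defining oligodendrocyte markers Mog, Mag and Sox10 had one in 1 library each, and Aqp4, Cx3cr1 and Cldn5 in none.

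Sequences from the kept Hox regions are shown first, read from the mm10 genome on the plus strand. The first is the 173 bases of the Hoxa region that lie before the start of the longest Hoxa7 transcript (chr6:52221855-52222027). The summits of that region, at chr6:52221713 to 52221851, lie within the transcript and are not among the printed bases. The next are the 300 bases around the summit of the region between Hoxb9 and Hoxb8 (chr11:96278827-96279126), where capitals mark the match to the consensus of CTCF, the architectural protein that anchors chromatin loops, and the 300 bases around the summit of the region beyond Hoxd1 (chr2:74774421-74774720).
Hoxa7 region: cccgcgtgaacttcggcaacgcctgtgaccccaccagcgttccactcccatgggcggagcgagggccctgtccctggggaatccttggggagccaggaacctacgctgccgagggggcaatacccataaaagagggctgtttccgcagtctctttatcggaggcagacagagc
Hoxb9 to Hoxb8 region: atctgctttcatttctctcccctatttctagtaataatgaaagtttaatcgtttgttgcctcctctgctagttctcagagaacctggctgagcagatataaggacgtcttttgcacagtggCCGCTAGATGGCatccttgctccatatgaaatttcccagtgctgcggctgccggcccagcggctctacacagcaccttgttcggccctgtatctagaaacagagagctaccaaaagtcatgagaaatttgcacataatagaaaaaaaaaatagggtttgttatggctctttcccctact
Hoxd1 region: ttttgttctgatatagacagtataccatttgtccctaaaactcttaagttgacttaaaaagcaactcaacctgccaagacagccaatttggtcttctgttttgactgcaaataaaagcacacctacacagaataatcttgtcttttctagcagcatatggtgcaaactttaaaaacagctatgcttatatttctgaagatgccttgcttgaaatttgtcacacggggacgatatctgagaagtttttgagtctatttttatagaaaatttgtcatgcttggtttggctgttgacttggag

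Promoters were compared first, taking a promoter as called in a library when a peak lay within 1 kb of the gene's 5′ end. Of the 39 Hox promoters, 38 had no peak in any of the 17 libraries, and only Hoxa7 had one, in 16 libraries. None was called in all 17. Over all protein-coding genes, 51.9% of promoters had a peak in all 17 libraries and 35.6% had none in any, against 97.4% with none among Hox genes. The promoters without a peak came from every cluster: 10 of the 11 Hoxa genes, all 10 Hoxb genes, all 9 Hoxc genes and all 9 Hoxd genes. They ran from 3′ members such as Hoxb1 and Hoxd1, which are used nearest the head, to the 5′ members of paralog group 13, which pattern the tail end and the limbs. In a bulk library, fewer nuclei with an open promoter and less opening per nucleus cannot be told apart.

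**Figure D1:**
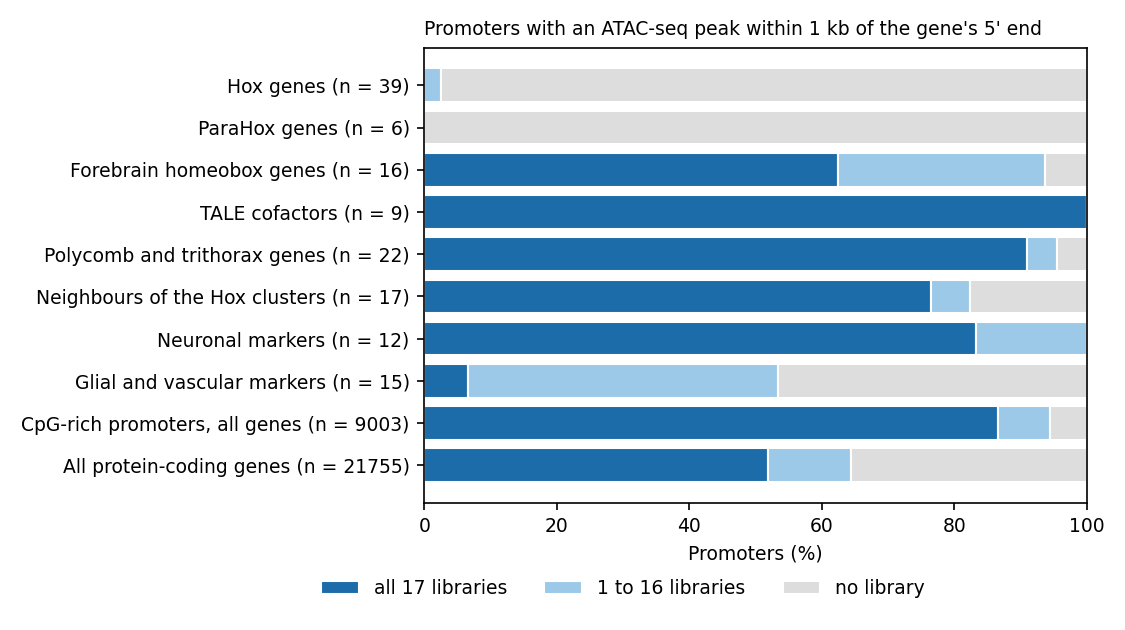
Share of promoters (%) with an ATAC-seq peak within 1 kb of the gene's 5′ end in all 17 libraries, in 1 to 16, or in none, by gene list (number of genes in brackets). Hox genes (38 of 39) and ParaHox genes (6 of 6) lacked a peak in every library, while all 9 TALE cofactors had one in all 17.

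Many annotated Hox genes have several transcript starts, and the gene's 5′ end can lie far from the start used most. Counting a peak within 1 kb of any annotated transcript start left the number at 1 gene, again Hoxa7. A window of 500 bp also gave 1 gene. A window of 3 kb added Hoxb8 (12 libraries), Hoxd8 (3 libraries) and Hoxc8 (1 library). The annotated 5′ ends of Hoxd3 and Hoxd4 lie side by side, so these genes shared their promoter values. The clusters also hold 53 other annotated genes, among them 7 microRNA and 9 antisense genes, and of these only Hoxd3os1, an antisense RNA of Hoxd3, had a peak within 1 kb of its start, in 3 libraries.

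Base composition did not set the Hox promoters apart from other promoters in the way the peaks did. CpG dinucleotides are depleted in most of the genome but kept at many promoters, and a promoter was called CpG-rich when the 300 bases from 250 before to 50 after the start had over 50% GC and over 0.6 of the CpG number expected from its C and G content. By this measure 18 of the 39 Hox promoters (46.2%) were CpG-rich, close to the 41.4% of all protein-coding promoters. Of all 9003 CpG-rich promoters, 94.5% had a peak in at least 1 library and 86.6% in all 17. Of the 18 CpG-rich Hox promoters none had a peak in any library. Hox genes were 0.20% of the CpG-rich promoters and 3.63% of the 496 CpG-rich promoters with no peak. Hoxa7, the exception, was not CpG-rich by this measure, with 56.7% GC and 0.54 of the expected CpG number. That holds for the 300 bases at its annotated start only. The whole 502 bp region called at Hoxa7 had 61.8% GC and a ratio of 0.71, above both thresholds. The contrast is widest at the top of the scale, where 98.1% of the 1551 promoters with a ratio of 1.0 or more had a peak and neither of the 2 Hox promoters did. These were Hoxa4 (76.3% GC, ratio 1.23) and Hoxa5 (61.7% GC, ratio 1.02).

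**Figure D2:**
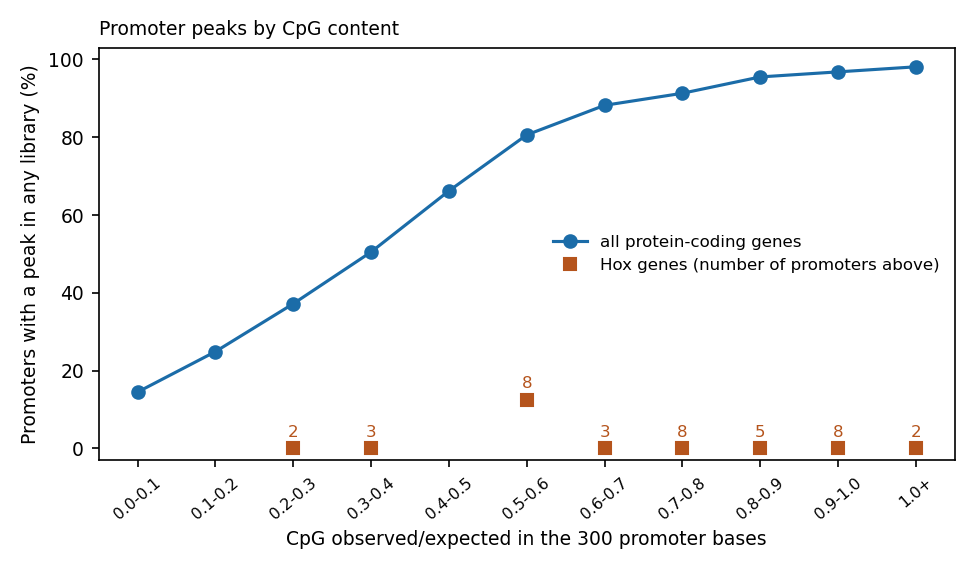
Share of promoters (%) with a peak in any library, by observed over expected CpG number in the 300 promoter bases. The line gives all protein-coding genes and rises from 14.5% to 98.1%; squares give Hox genes, with the number of Hox promoters in each class above them, and stand at 0 in all classes but 0.5 to 0.6, which holds Hoxa7.

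RefSeq start sites (assembly GRCm38.p6) were found for 22 of the 39 Hox genes. The range of their upstream sequence is shown by the pair with the most and the fewest CpG among the 17 start sites whose 250 upstream bases hold no annotated untranslated base, each read along the strand of its gene with CpG in capitals. Hoxa13 (chr6:52260881-52261130, minus strand), of the group used nearest the tail, had 35 CpG, and Hoxd11 (chr2:74679308-74679557, plus strand), a gene of limb and trunk patterning, had 2. Neither had a promoter peak in any library.
Hoxa13 upstream: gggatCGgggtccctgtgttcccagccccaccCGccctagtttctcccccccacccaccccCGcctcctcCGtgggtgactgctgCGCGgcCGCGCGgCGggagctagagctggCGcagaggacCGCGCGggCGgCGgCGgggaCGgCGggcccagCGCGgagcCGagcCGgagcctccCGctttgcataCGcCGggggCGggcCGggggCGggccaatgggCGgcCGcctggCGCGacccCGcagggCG
Hoxd11 upstream: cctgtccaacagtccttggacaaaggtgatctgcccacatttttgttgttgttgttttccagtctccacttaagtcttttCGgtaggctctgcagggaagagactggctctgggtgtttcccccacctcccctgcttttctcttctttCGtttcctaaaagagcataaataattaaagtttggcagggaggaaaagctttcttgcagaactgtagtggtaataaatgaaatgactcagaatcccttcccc

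The clusters as a whole were nearly free of peaks. Together with their margins they span 652 kb, and at the density of kept regions in the genome (5.60 per 100 kb) that length would hold 36.5 regions, against 3 found. Single libraries had 0 to 4 peaks in the clusters, or 0 to 0.614 per 100 kb, against 2.87 to 5.96 per 100 kb of genome. Diestrus cocaine 1 had the most (4) and diestrus cocaine 3 had none, and control libraries had 2 or 3. The clusters are not poor in CpG, at 18.3 to 25.5 per kb against 8.34 in the genome, and their GC content was 47.8% to 48.5% against 41.8%.

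The gap in peaks ended outside the clusters. Between the first and last Hox base the density of kept regions was 0.407 per 100 kb. It was 0.50 within 50 kb on either side, 4.75 from 50 to 100 kb away and 6.33 from 100 to 250 kb away. The nearest region called in all 17 libraries lay 142 kb from the 3′ end of the Hoxa cluster, at the promoter of Skap2, and 379 kb from its other end, at the promoter of Hibadh. For Hoxb the distances were 117 kb, at the promoter of Atp5g1, a subunit gene of the mitochondrial ATP synthase, and 67.4 kb. For Hoxc they were 101 kb and 97.7 kb. For Hoxd they were 88.7 kb, at the promoter of Lnpk, and 24 kb beyond Hoxd1.

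**Figure D3:**
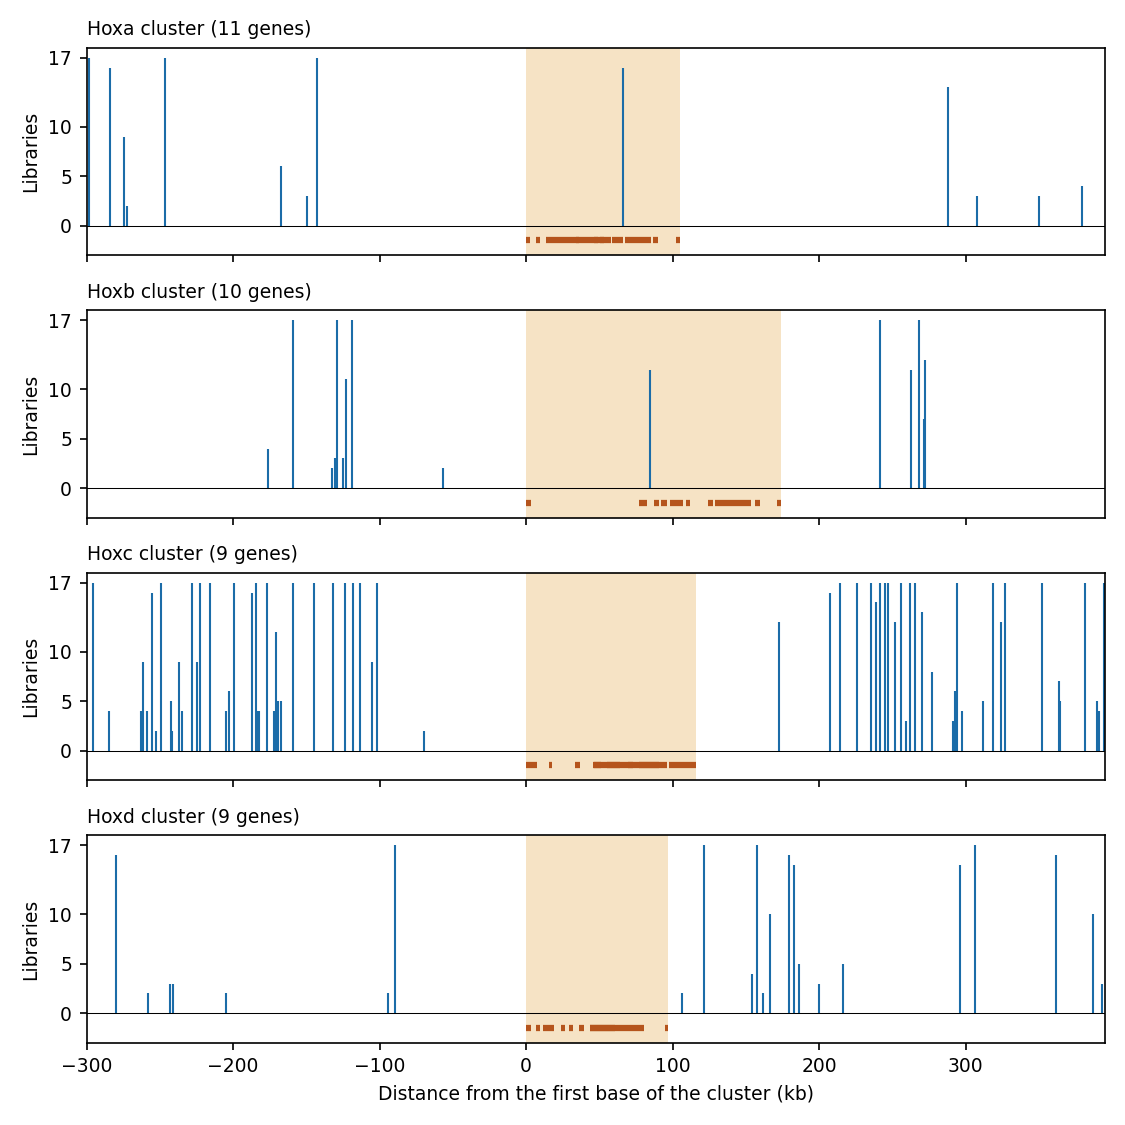
Kept regions around the 4 Hox clusters. The x axis is the distance (kb) from the first base of each cluster, the height of each line is the number of libraries that called the region (of 17), the shaded span runs from the first to the last Hox gene and the bars under the axis are the Hox genes. The shaded spans hold 1 region in Hoxa (16 libraries), 1 in Hoxb (12 libraries) and none in Hoxc or Hoxd.

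Stretches between neighbouring kept regions were compared by the number of CpG-rich protein-coding promoters they hold. The median of 147400 stretches was 4.66 kb long. The stretch that holds the whole Hoxc cluster was 242 kb long and held 5 CpG-rich promoters, more than any other in the genome. Only 5 stretches held 4 or more, and another of them was the Hoxa stretch on the Skap2 side of the Hoxa7 region, 208 kb long with 4. The remaining 3 were a stretch with Srp54b and Srp54c on chromosome 12 and 2 stretches on chromosome 4. Of the stretches on chromosome 4, the longer holds interferon alpha genes and the other holds Ifnz. The Hoxd stretch was 195 kb long and the rest of the Hoxa cluster 221 kb. The region between Hoxb9 and Hoxb8 split the Hoxb cluster into stretches of 141 kb and 156 kb.

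Most of the listed genes that work with Hox proteins or lie around the clusters did not share the absence of peaks. All 9 TALE cofactor promoters, among them Meis2 and Pknox1, had a peak in all 17 libraries. Of 22 Polycomb and trithorax genes, whose products repress or maintain Hox transcription, 20 had one in all 17, Phf19 in 8 and Cbx7 in none. Among 17 neighbours of the clusters 13 had one in all 17. The other 4 were the homeobox genes Evx1 and Evx2, which sit at the ends of the Hoxa and Hoxd clusters, and Ttll6, all with none, and Skap1 with 1. The 6 ParaHox genes, the sister set of the Hox genes (Gsx1, Gsx2, Pdx1, Cdx1, Cdx2 and Cdx4), had no promoter peak in any library. Of 16 homeobox genes of the forebrain 10 had a promoter peak in all 17 libraries, including the striatal genes Dlx5, Dlx6, Six3 and Isl1, and Dlx1 had one in 16. The lowest were Otx1 (9), Emx2 (2), Lhx6 (1), Nkx2-1 (1) and Lhx8 (0).

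The most frequent Hox region was at Hoxa7, a gene of mid-trunk identity, at chr6:52221526-52222027 (502 bp). It overlaps the first exon and 5′ untranslated part of the longest Hoxa7 transcript, which reads on the minus strand, and extends upstream towards Hoxa9. Its GC content was 61.8%. It was called in all libraries except diestrus cocaine 3, whose weakest peak anywhere had a fold enrichment of 2.07. Of the 6425 regions called in exactly 16 libraries, 1274 (19.8%) were missing in that same library.

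Fold enrichment, the summit pileup over the background of the same library, was 3.49, 3.35 and 3.74 at the Hoxa7 region in diestrus control libraries 1 to 3. In diestrus cocaine libraries 1 and 2 it was 4.04 and 4.91. In proestrus control libraries it was 3.27, 3.60 and 3.41, and in proestrus cocaine libraries 1, 2 and 4 it was 3.91, 4.38 and 3.67. Both female cocaine groups thus lay above their controls without overlap, apart from the library with no call. In males the order was the opposite, with 3.82, 4.82 and 4.83 in controls and 2.95 and 2.79 in cocaine libraries. The summits held 23 to 43 reads, and the peak ranked between the 12.3rd and the 71.4th percentile of the fold enrichments of its own library, lowest in male cocaine 2.

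**Figure D4:**
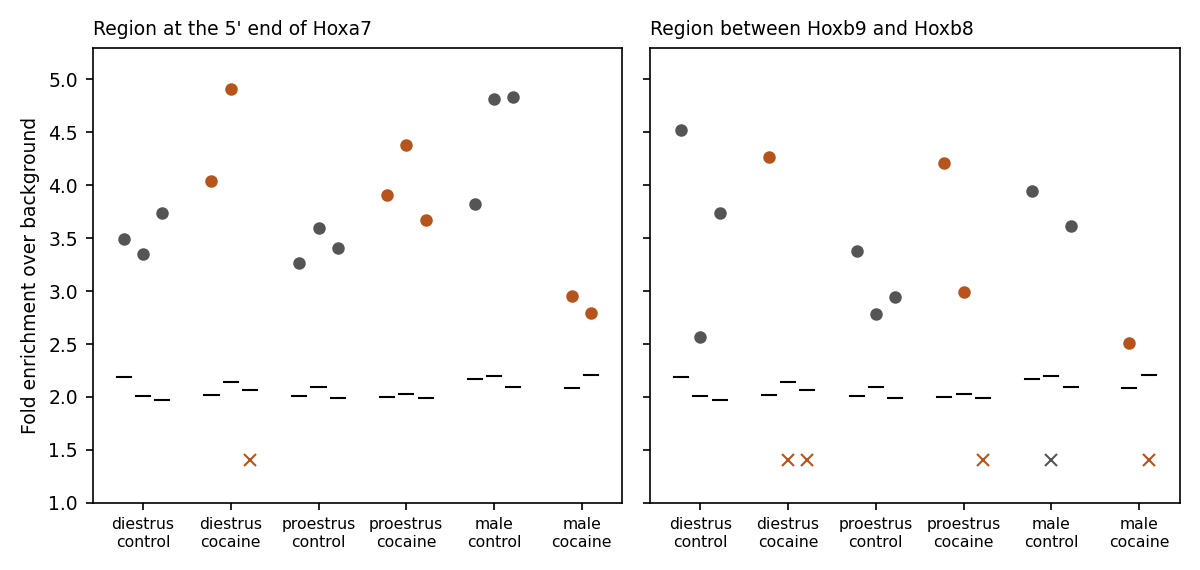
Fold enrichment over background of the Hoxa7 region and of the region between Hoxb9 and Hoxb8 in each library, by group. Points are libraries (grey control, orange cocaine), crosses are libraries with no call, drawn below the axis range of called peaks, and black ticks mark the lowest fold enrichment called anywhere in that library; the Hoxa7 region was called in 16 libraries and the other in 12.

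These differences did not pass a test. Since no Hox region was called in all 17 libraries, the Hoxa7 region was tested with limma among the 43272 regions called in at least 16. Log2 values were centred on each library's median, and the missing value of diestrus cocaine 3 was left out. That value was missing because no peak was called there. The diestrus cocaine mean thus rests only on libraries with a call and may be too high, which bears on every contrast that uses it. Cocaine against control, averaged over the 3 pairs of groups, differed by 0.04 ± 0.11 on the log2 scale (SE, 95% interval -0.18 to 0.25, limma adjusted p = 0.856), in a comparison that called 13.4% of all regions. The difference was 0.15 ± 0.19 in diestrus females (-0.23 to 0.54, adjusted p = 0.639) and 0.11 ± 0.17 in proestrus females (-0.24 to 0.46, adjusted p = 0.758). In males it was -0.15 ± 0.19 (-0.54 to 0.23, adjusted p = 0.650). The shares of all regions called were 9.77%, 3.43% and 9.01%.

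The effect of cocaine in males minus that in females was -0.29 ± 0.23 at the Hoxa7 region (-0.75 to 0.18, adjusted p = 0.405, 16.6% of regions called). Proestrus and diestrus effects differed by -0.04 ± 0.26 (-0.56 to 0.48, adjusted p = 0.990, 0.00462% called). Male against female controls gave 0.07 ± 0.15 (-0.23 to 0.37, adjusted p = 0.768, 24.5% called), and proestrus against diestrus controls 0.17 ± 0.17 (-0.17 to 0.52, adjusted p = 0.689, 0.411% called). The intervals leave room for changes of either sign. Without centring, the Hoxa7 region was lower in male cocaine than in male control libraries by -0.64 (limma adjusted p = 0.0114), while the median of all regions moved by -0.40, and the male against female effect was -0.91 (adjusted p = 0.00258) against a median of -0.48. The fewer peaks of the male cocaine libraries moved with both, and their part was not tested.

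The second Hox region, at chr11:96278790-96279212 (423 bp), lies between genes, 2195 bp past the end of Hoxb9 and 2693 bp before the nearest start of Hoxb8. It holds the CTCF consensus shown above, at chr11:96278948-96278959, 23 bp from the median summit. The consensus was found on either strand in 3.66% of the 300-base windows around the summits of all kept regions and in 5.53% of those called in all 17 libraries. It occurs 5 times in the clusters and margins, once in Hoxa, 3 times in Hoxb and once in Hoxd, and only this occurrence lay in a kept region, against 36.1% of 22944 occurrences in the genome. The letters TGANTCA (bound by AP-1) and TGATTNAT (bound by Pbx and Hox pairs), searched on both strands, were absent from the same window of all 6 Hox regions. They occurred in 18.3% and 6.15% of the windows of kept regions.

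The region between Hoxb9 and Hoxb8 was called in 12 libraries. Fold enrichment was 4.52, 2.57 and 3.74 in diestrus control libraries, 4.27 in diestrus cocaine 1, and 3.38, 2.78 and 2.94 in proestrus control libraries. It was 4.21 and 2.99 in proestrus cocaine libraries 1 and 2, 3.95 and 3.62 in male control libraries 1 and 3, and 2.51 in male cocaine 1. Called values of control and cocaine libraries overlapped. The summits held 22 to 41 reads.

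Calls of this region were fewer with cocaine, in 4 of 8 libraries (50%) against 8 of 9 controls (88.9%). This difference of -38.9 percentage points did not pass Fisher's exact test (two-sided p = 0.131, 0.511 after Benjamini-Hochberg adjustment over 64304 regions called in 4 to 13 libraries). At an adjusted p under 0.05 the test called 0% of those regions, while 8385 of them (13%) had an unadjusted p under 0.05. Cocaine libraries without a call were diestrus cocaine 2 (111834 peaks in the library), diestrus cocaine 3 (99789), proestrus cocaine 4 (129573) and male cocaine 2 (75458). The control without a call was male control 2 (134653). The median over the libraries was 128644 peaks, and the part of peak number in these calls was not tested. The direction was the same in each pair of groups, 1 of 3 against 3 of 3 in diestrus, 2 of 3 against 3 of 3 in proestrus and 1 of 2 against 2 of 3 in males. An exact test stratified by these pairs gave p = 0.140. With each library cut to its 75458 strongest peaks, the direction was no longer the same in each pair. Calls were then 1 of 3 against 2 of 3 in diestrus and 2 of 3 against 2 of 3 in proestrus. In males they were 0 of 2 against 2 of 3.

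The third kept region, at chr2:74774383-74774709 (327 bp), lies 9241 bp past the end of Hoxd1 in intergenic sequence with 33.9% GC. It was called in male control 1 (fold enrichment 4.21, 32 summit reads) and male control 3 (3.73, 33 summit reads) and in no other library, male control 2 and both male cocaine libraries included. Regions called in 2 libraries or fewer were 9.04% of all kept regions.

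The 3 regions not kept had at most 1 call per group. A region between Hoxd9 and Hoxd8 (chr2:74702181-74702555) was called in diestrus cocaine 2, proestrus control 2 and male control 2, with fold enrichments of 2.77, 2.78 and 3.17. A region inside Hoxd3 and Hoxd4, over an exon of the antisense RNA Hoxd3os1 (chr2:74715867-74716185), was called in diestrus control 2 (2.34), diestrus cocaine 1 (2.37) and proestrus control 3 (3.32). A region in an intron of Hoxc5 (chr15:102987448-102987674), the sole one in the Hoxc cluster, was called in diestrus cocaine 1 alone (2.97).

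No Hox region separated any pair of groups, that is, was called in every library of one and none of the other. Separated regions were 2.43% of all kept regions in diestrus cocaine against control, 4.09% in proestrus, 18.4% in males, 7.51% in male against female controls and 4.75% in proestrus against diestrus controls. When weak peaks were left out (-log10 q under 5), or peaks had to cover 50% of a region, the Hoxa7 region was called in 3 of 3 male controls and 0 of 2 male cocaine libraries. Under these settings 18.9% and 23.1% of all kept regions were called in male controls only. When each library was cut to its 75458 strongest peaks, the number of the smallest library, the Hoxa7 region was again called in both male cocaine libraries. Male cocaine 2 is that smallest library, so it lost no peak and its call could not change. Leaving out male control 2 made the region beyond Hoxd1 one that was called in both remaining male controls and in no male cocaine or female control library, as were 24.7% and 10.4% of all kept regions in these comparisons. Leaving out diestrus cocaine 1 did the same for the region between Hoxb9 and Hoxb8 in diestrus, where neither remaining cocaine library had a call, as for 7.33% of all kept regions.

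The promoters of the cofactor and regulator genes could be tested over the regions called in all 17 libraries. A listed gene entered when such a region reached within 1 kb of its 5′ end, which took in Dlx1, whose own peak stopped short of that distance in 1 library. Cocaine against control, averaged over the 3 pairs of groups, 1 of 9 TALE promoters rose, Meis2, a cofactor gene active in striatal neurons, by 0.40 ± 0.09 (log2, SE, limma adjusted p = 0.00223). Of 20 Polycomb and trithorax promoters 1 rose, Phc1, a subunit gene of Polycomb repressive complex 1, by 0.35 ± 0.12 (adjusted p = 0.0406). None of these fell in this averaged comparison, and the median differences were -0.01 and 0.04, against 0.03 over all regions, of which 7.95% were higher and 5.87% lower (13.8% in all). Of 11 forebrain homeobox promoters 6 rose and none fell, with a median of 0.28 and with Dlx6 and Dlx5 at 0.42 and 0.45. Neuronal marker promoters moved in the same direction, with 3 of 10 higher, none lower and a median of 0.19, and their part in the forebrain result was not tested. The genes in this and the next paragraph were named after their values were seen. Without centring, which moves the median of all regions to -0.09, no promoter of the 4 lists passed in either direction.

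Within groups the calls differed. In diestrus, where 11.1% of all regions were called, 5 forebrain promoters rose (median 0.41), and among the TALE genes Meis1 and Meis2 rose while Pknox1 fell by 0.51. Of the Polycomb and trithorax genes in diestrus, Phc1 rose, and Kdm6b, a demethylase of the Polycomb mark, and Kmt2b, a methyltransferase of the trithorax group, fell by 0.56 and 0.59. In proestrus (3.40% called) no forebrain promoter passed (median 0.04), and Ezh1, a Polycomb methyltransferase, fell by 0.56. In males (9.56% called) 4 forebrain promoters rose (median 0.48), and of the Polycomb and trithorax genes Pcgf2 rose by 0.55 (list median 0.29). The proestrus and diestrus effects differed at none of the 11 forebrain promoters by the limma interaction term, which called 2 of all 36847 regions. A count of 0 was thus near the share over all regions and does not show that the effects were equal. Without centring the calls of Pknox1, Phc1, Kdm6b, Kmt2b, Ezh1 and Pcgf2 were lost, and the forebrain counts were 1 in diestrus and 0 in males. In males 2 Polycomb and trithorax promoters and 1 TALE promoter were then lower. With mean fold enrichment over the peaks of a region, the forebrain counts were 0 in diestrus and 0 in males. The diestrus counts of TALE and of Polycomb and trithorax promoters, Meis1 and Meis2 included, were then also 0, while 2 TALE promoters rose in males. Without diestrus cocaine 2, diestrus cocaine 3 or diestrus control 3 the diestrus forebrain count was 0, without diestrus control 1 it was 3, and without male cocaine 1, male cocaine 2 or male control 1 the male count was 0, 1 or 2. With a library left out, the diestrus counts of Polycomb and trithorax promoters ranged from 0 to 6 higher and 0 to 5 lower, both highest without diestrus cocaine 1, and the TALE counts from 1 to 2 higher and 0 to 3 lower. The proestrus count of lower Polycomb and trithorax promoters ranged from 0 to 5, highest without proestrus cocaine 2, and the male count of higher ones from 0 to 4.

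Of 13 neighbours of the clusters none passed cocaine against control in either direction, with a median of 0.01. The effect of cocaine was higher in males than in females at 8 of the 20 Polycomb and trithorax promoters and lower at none, against 11.9% of all regions higher and 6.53% lower (18.4% in all). Without centring 0 were higher and 6 lower, so this direction rests on the scaling.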

How the data were processed

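Accessible chromatin was measured by ATAC-seq in 17 libraries. Per the study's methods, the authors used BWA-MEM for alignment to mm10 and ran MACS2 library by library. Tool versions were not given in the sources used here. The deposited peaks carry the fold enrichment of the summit over background (a ratio), −log10 p and −log10 q, and a score, which was not used. The study's count test with DESeq2 was not run, since counts were not used here. The background pileup was recovered from the steps between fold enrichments. All values (100%, within 0.02 reads) were whole multiples, and Poisson −log10 p recomputed from them differed by a median of at most 3.42e-06. Fold enrichment is not normalized between libraries, so log2 values were centred on each library's median.

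Peaks overlapping by at least 1 bp were merged, and regions called in at least 2 libraries of one group were kept. Calls were compared with Fisher's exact test and fold enrichment with limma 3.58.1 (R 4.3.3) on 6 group means, at an adjusted p under 0.05. The planned limma test of Hox regions called in all 17 libraries had no region to test, and the fit with 1 missing library was chosen after seeing this. CTCF was matched by its 12-letter consensus. No 2 libraries shared more than 0.0728% of identical peak intervals. Exact tests and limma were checked on simulated data. The libraries are labelled as separate samples, each from pooled animals, and p-values measure the spread between these pools. The stage label of diestrus cocaine 2 was blank and its group came from its title.

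The members and gene lists were chosen with earlier results of these data known. Hox genes were named by the number of libraries with a promoter peak; regions were to be named when called in all libraries, past a test or separated, and as none was, all 6 were described. Listed genes were given as counts with examples of most and fewest libraries. The values of some single genes are not reported here. Prac1, listed as a neighbour, is not a protein-coding gene of the annotation. Alternatives were other peak thresholds, windows and margins, normalizations, a replicate block and each library left out.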

Additional observations from a re-analysis of the deposited data

Results flagged for a closer look

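Libraries of each treatment (9 control, 8 cocaine) were screened for a value far from the rest in 18 sets of per-library values, and 6 values stood apart. Chance alone gives about 1 in 20, and counts that differ by 1 gene among otherwise equal libraries stand apart easily. The number of Hox peaks per library and the fold enrichments at the Hoxa7 and Hoxb9 to Hoxb8 regions held no such value.

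Among 16 forebrain homeobox promoters, diestrus cocaine 2 had a peak at 15 and proestrus control 1 at 10, against 11 or 12 in the other libraries. Among 15 glial and vascular markers, proestrus cocaine 2 had a promoter peak at 8, the most of any library. That library had 2 Hox peaks, and its fold enrichment at the Hoxa7 region was 4.38. Male control 2 had a peak at 11 of the 12 neuronal markers and at 14 of the 17 neighbours of the clusters, and male cocaine 2 at 11 of the neuronal markers.

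The effect of cocaine differed between males and females, by the interaction term of limma, at 8 of 20 Polycomb and trithorax promoters (all higher in males), at 4 of 9 TALE promoters (3 higher and 1 lower) and at 1 of 11 forebrain homeobox promoters, against 11.9% higher and 6.53% lower over all regions. Without centring the Polycomb count was 6, all lower, and the TALE count 3, all lower, so the direction depends on the scaling. Without male cocaine replicate 1 the Polycomb, TALE and forebrain counts were 1, 1 and 0; without male cocaine replicate 2 they were 3, 1 and 0. Without male control replicate 2 the Polycomb count was 4 and the forebrain count 0. The Hoxa7 region did not pass the same test.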

How the results depend on the processing

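The number of kept Hox regions (3) was 2 to 4 under every planned peak threshold, margin and left-out library, and 6 when all merged regions were counted. No Hox region was called in all libraries except 1 with a 50 kb margin; with each library left out the number was 0 to 1, as was the number of Hox promoters called in all libraries, the 1 being Hoxa7 without diestrus cocaine replicate 3. Separated Hox regions in males were 1 with -log10 q of at least 5 and 1 with peaks covering 50% of a region; with each library left out they were 0 to 1 in males (1 without male control replicate 2, the Hoxd1 region), 0 to 1 in diestrus (1 without diestrus cocaine replicate 1, the Hoxb9 to Hoxb8 region) and 0 to 1 in male against female controls (1 without male control replicate 2). The call test of Hox regions gave 0 under all alternatives, with an exact p of 0.0769 to 0.347 for the Hoxb9 to Hoxb8 region.

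The labels state no pairing by replicate number, and proestrus cocaine 4 has no partner. Deviations from group means correlated at -0.293 to 0.195 between same-numbered libraries and at -0.272 to 0.303 between the others. With 2 or 3 libraries per group these deviations depend on each other, so they cannot decide whether libraries were paired. With the replicate block 0 Hox regions passed, and the stratified exact p was 0.20. The Hoxa7 difference between cocaine and control turned to -0.01 with quantile normalization, -0.03 without centring and -0.01 with mean fold enrichment, and ranged from -0.02 to 0.11 with a library left out. Proestrus against diestrus controls turned to -0.04 without centring. Other left-out ranges were -0.05 to 0.36 in diestrus (extremes without diestrus cocaine 2 and 1), 0.02 to 0.15 in proestrus (lowest without proestrus cocaine 2), -0.27 to -0.06 in males (without male control 1, and without male control 2 or 3), 0.00 to 0.22 for male against female controls (without male control 2 and 1), -0.40 to -0.16 for the male against female effect (without male control 1 and diestrus cocaine 2) and -0.25 to 0.16 for the proestrus against diestrus effect. None of these passed the test. With -log10 q of at least 5 the Hoxa7 region had no value to fit. For TALE promoters the count changed by cocaine (1) was 2 with quantile normalization (1 higher, 1 lower) or the replicate block, and without diestrus control 1, diestrus cocaine 1, proestrus cocaine 2 (1 higher, 1 lower) or proestrus cocaine 4. For Polycomb and trithorax promoters the count changed by cocaine (1) was 3 with quantile normalization or the replicate block, and 0 to 3 with a library left out. The forebrain count (6) was 2 with mean fold enrichment. The limit of detection bears on every absence, since the weakest peaks called had 15 to 20 summit reads.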
